A study of Mus with 8 samples.

Results

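The genes of calcitonin gene-related peptide (CGRP) and adrenomedullin signalling were followed in RNA sequencing libraries of mouse uterus. They were 8 rows of the deposited count table, chosen by gene symbol out of 31269. The 4 peptide genes were Calca, Calcb, Adm and Adm2, the receptor gene was Calcrl, and the 3 receptor activity-modifying protein genes were Ramp1, Ramp2 and Ramp3. All 8 were found, and 6 of them passed the filter on low counts. Calcb and Adm2 did not pass and are described by their counts alone.

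The uteri were taken on day 6 of pseudopregnancy, when progesterone dominates although there is no embryo. The study has 4 control libraries and 4 libraries whose label is myometrial deficiency of PGR, the progesterone receptor. The myometrium is the smooth muscle wall of the uterus. The labels name the tissue as lying around implantation sites, which a pseudopregnant uterus would not have, and this was not settled. They give no strain, age, allele, Cre driver or control genotype, and do not say whether the libraries are separate animals. The p-values therefore cover the spread among these libraries, which may be technical.

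Total counts ran from 70296369 to 72364750 per library. Pgr, the targeted gene, measured 131, 180.0, 144 and 171 CPM (counts scaled to library size, with TMM factors) in controls 1 to 4. It measured 187, 184, 177 and 160 CPM in deficient-labelled libraries 1 to 4. The groups overlapped, and the mean was the higher of the 2 where PGR deficiency is labelled (log2 difference 0.18 ± 0.11 SE, edgeR adjusted p = 0.338). Counts from uterine tissue do not separate a loss in muscle cells alone. Why Pgr was not lower was not tested, so every direction below rests on the label. Markers of smooth muscle (Myh11, mean 1857 CPM in controls), stroma (Dcn, 1225 CPM) and epithelium (Epcam, 165 CPM) were all present. In bulk tissue, fewer cells of a type and less RNA per cell cannot be told apart. Libraries 2 and 3 labelled deficient stood apart, as their epithelial marker sums below show. Results of the members, their ratios and the lists that rest on these libraries are also given without them. Where these libraries are the extremes of their group, leaving them out has to move a difference toward the rest. The direction of such a move is no result.

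CGRP and adrenomedullin are related peptides that relax smooth muscle and dilate vessels, mainly by raising cyclic AMP. They share a receptor, the product of Calcrl, which reaches the cell surface and gains its ligand preference only with a RAMP partner. With RAMP1 it forms the CGRP receptor, and with RAMP2 or RAMP3 it forms adrenomedullin receptors. In pregnancy CGRP is known as a relaxant of the myometrium, and Adm supports vessel growth and implantation.

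The RAMP genes differed in direction. Ramp1 lay lower in every library labelled deficient than in every control, and Ramp2 lay higher in every one. Ramp3 had the largest difference of the 3, but its groups overlapped. None of the differences passed the main test, edgeR's quasi-likelihood test with Benjamini-Hochberg adjustment over 17629 genes at a threshold of 0.05. That test called 0 of the 6 tested members and 0% of all genes. At an unadjusted p under 0.05 it placed 3 of the 6, the RAMP genes, against 24.8% of all genes (13% higher and 11.8% lower). The groups did not overlap for 2 of the 6, against 16.3% of all genes. DESeq2 called the 3 RAMP genes, where it called 14.2% of all genes (7.43% higher and 6.72% lower), and limma-voom called 0 of the 6, against 0.0113% of all genes.

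**Figure D1:**
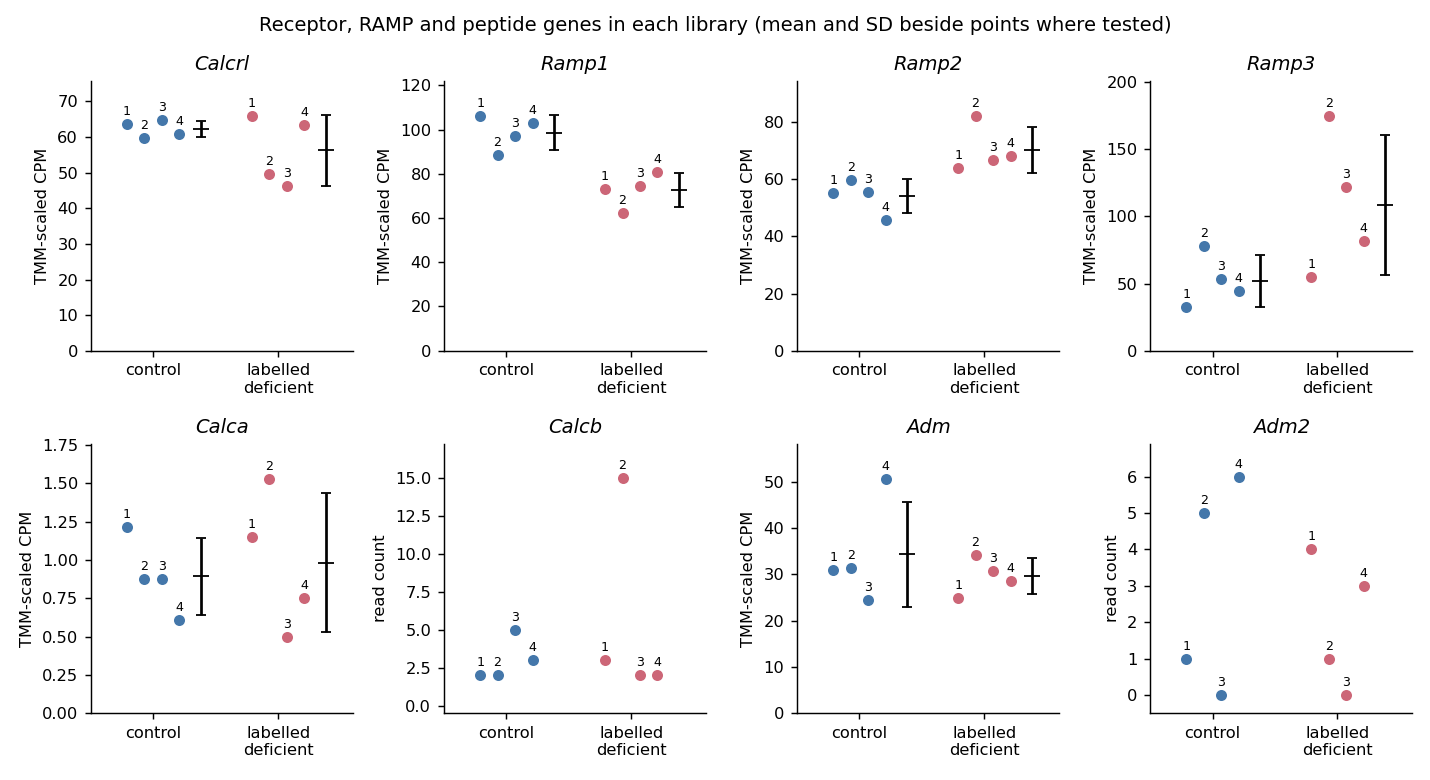
Level of each gene in each library (TMM-scaled CPM, or read count for Calcb and Adm2), with library numbers over the points and the mean and SD beside each group of a tested gene. Ramp1 is lower and Ramp2 higher in all 4 libraries labelled deficient, while the other genes overlap between groups.

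Ramp1 (chromosome 1, 91179822 to 91225196, GRCm38.p6) encodes the partner that makes the CGRP receptor. It measured 106, 88.4, 96.9 and 103 CPM in controls 1 to 4. Its levels in deficient-labelled libraries 1 to 4 were 73.3, 62.4, 74.3 and 80.6 CPM. The highest library labelled deficient thus stood below the lowest control, in a direction shared by 8.66% of all genes. Group means were 98.6 ± 7.78 CPM and 72.6 ± 7.52 CPM (SD, n = 4 each). The log2 difference was -0.44 ± 0.09 (SE), a ratio of 0.737 with a 95% interval from 0.636 to 0.853. The edgeR adjusted p was 0.0906 and the DESeq2 adjusted p was 0.00155. Without libraries 2 and 3 labelled deficient the log2 difference was -0.35 ± 0.09 (edgeR adjusted p = 0.154).

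Ramp2 (chromosome 11, 101246334 to 101248250) encodes the partner for the main adrenomedullin receptor of blood and lymphatic endothelium. It measured 55.0, 59.8, 55.3 and 45.6 CPM in controls 1 to 4, and 64.0, 82.0, 66.5 and 68.0 CPM in deficient-labelled libraries 1 to 4. Here the lowest library labelled deficient stood above the highest control, as in 7.61% of all genes. Group means were 53.9 ± 5.96 CPM and 70.1 ± 8.08 CPM (SD, n = 4 each). The log2 difference was 0.38 ± 0.11 (SE), a ratio of 1.30 with a 95% interval from 1.10 to 1.54. The adjusted p was 0.107 in edgeR and 0.0224 in DESeq2. Without libraries 2 and 3 labelled deficient the log2 difference was 0.29 ± 0.11 (edgeR adjusted p = 0.229).

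Ramp3 (chromosome 11, 6658506 to 6677478) encodes the partner for a further adrenomedullin receptor and also acts in receptor recycling. Controls 1 to 4 measured 32.2, 78.1, 53.0 and 44.4 CPM, and deficient-labelled libraries 1 to 4 measured 55.1, 175, 122 and 81.5 CPM. Libraries 2 and 3 labelled deficient were the highest of all 8, and library 1 lay inside the control range. Group means were 51.9 ± 19.4 CPM and 108 ± 52.0 CPM (SD, n = 4 each), so the spread was wide in both groups. The log2 difference was 1.06 ± 0.38 (SE), a ratio of 2.09 with a 95% interval from 1.13 to 3.85, with an adjusted p of 0.151 in edgeR and 0.0400 in DESeq2. Without libraries 2 and 3 labelled deficient it was 0.40 ± 0.33 (edgeR adjusted p = 0.555). A lower value had to follow from leaving out the highest libraries. Gm11978, which overlaps Ramp3 in the annotation, held 1 to 15 counts per library.

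Calcrl (chromosome 2, 84330626 to 84425405), the shared receptor gene, was the steadiest member among the controls. It measured 63.7, 59.8, 64.7 and 60.8 CPM in controls 1 to 4, and 65.9, 49.5, 46.1 and 63.5 CPM in deficient-labelled libraries 1 to 4. Libraries 2 and 3 labelled deficient lay below every control, while library 1 lay above every control and library 4 within their range. The log2 difference was -0.15 ± 0.12 (SE; edgeR adjusted p = 0.465). Without libraries 2 and 3 it changed sign, to 0.060 ± 0.063 (edgeR adjusted p = 0.652). A rise had to follow from leaving out the lowest libraries of the group.

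**Figure D2:**
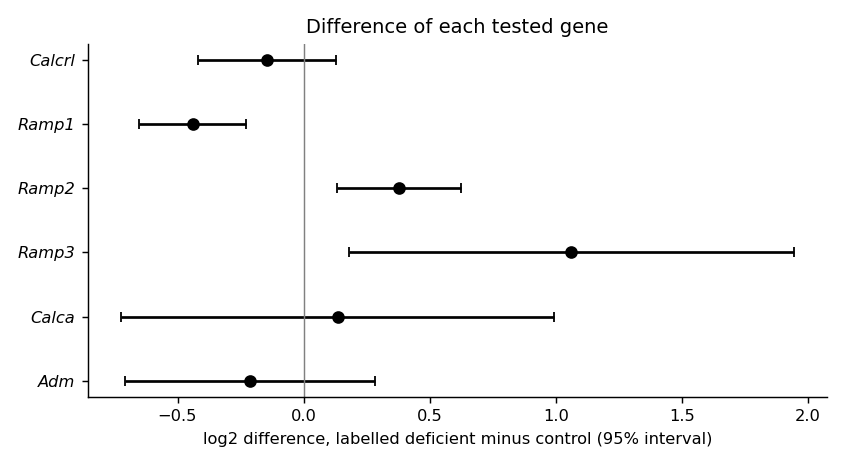
Log2 difference (labelled deficient minus control, points) of each tested gene with its 95% interval (bars) from edgeR. The intervals of Ramp1, Ramp2 and Ramp3 lie on one side of 0 before adjustment over all genes, those of Calcrl, Calca and Adm include 0.

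Ratios of counts within a library do not depend on the scaling between libraries. They were not divided by transcript length, so they show change between libraries and not which gene is more abundant. They are given with no test. The log2 ratio of Ramp1 over Ramp2 was 0.95, 0.56, 0.81 and 1.17 in controls 1 to 4 and 0.20, -0.39, 0.16 and 0.25 in deficient-labelled libraries 1 to 4. The means were 0.87 ± 0.26 and 0.05 ± 0.30 (SD, n = 4 each). The groups did not overlap, which had to follow from the separation of Ramp1 and of Ramp2 given above and is no further result.

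Relative to Calcrl, the RAMP genes overlapped between groups. The log2 ratio of Ramp1 over Calcrl averaged 0.66 ± 0.10 in controls and 0.38 ± 0.22 in the libraries labelled deficient (SD, n = 4 each), where library 3, at 0.69, lay within the control range. Ramp2 over Calcrl averaged -0.21 ± 0.17 and 0.33 ± 0.36. Its values in libraries 2 and 3 labelled deficient were 0.73 and 0.53, against -0.04 and 0.10 in libraries 1 and 4. The same libraries were highest for Ramp3 over Calcrl, at 1.82 and 1.40, against -0.26 and 0.36 in libraries 1 and 4. Without libraries 2 and 3 labelled deficient, the difference between group means of the log2 ratio went from 1.17 to 0.39 for Ramp3 over Calcrl and from 0.54 to 0.24 for Ramp2 over Calcrl. For Ramp1 over Calcrl it went from -0.28 to -0.41, and for Ramp1 over Ramp2 from -0.82 to -0.65.

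**Figure D3:**
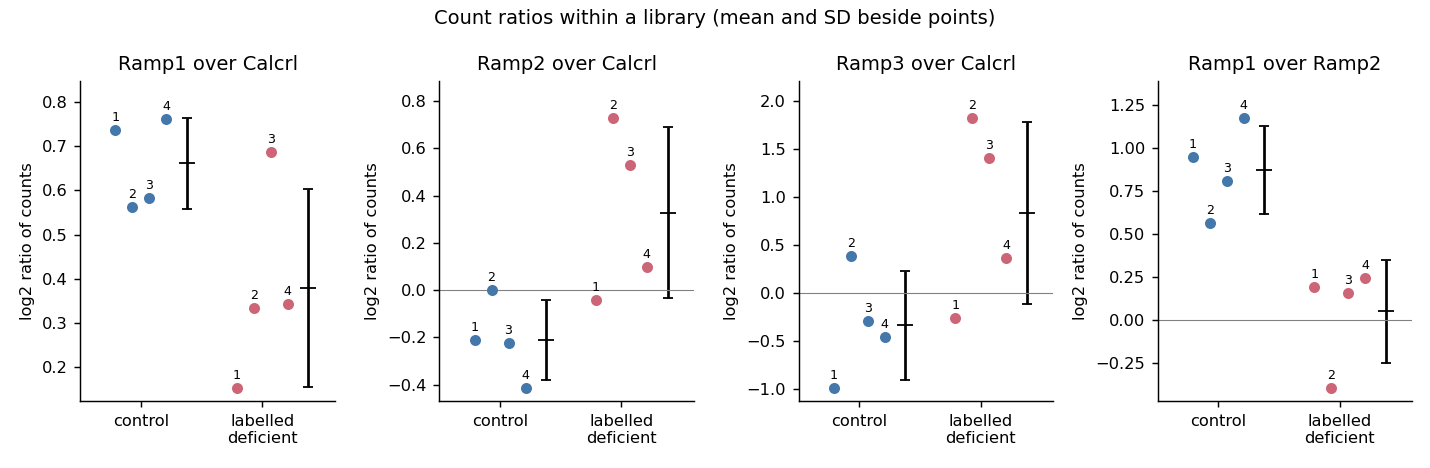
Log2 ratio of counts of 2 genes within each library, with library numbers over the points and the mean and SD beside each group. Ramp1 over Ramp2 is lower in all 4 libraries labelled deficient, as follows from the levels of the 2 genes, and the ratios to Calcrl overlap between groups.

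Markers of the cells that could hold these genes also differed between libraries. Summed levels of 12 blood endothelial markers were 980.3 and 1143 CPM in libraries 2 and 3 labelled deficient, below all controls (1414 to 1743 CPM), and 1900.1 and 1661 CPM in libraries 1 and 4. Calcrl was likewise lowest in libraries 2 and 3 labelled deficient and highest in library 1. Ramp2 did not follow these sums. It measured 82.0 CPM, its highest, in library 2 labelled deficient, where the sum was lowest. Of the 12 markers 8 had a negative difference (median log2 difference -0.15), where 48% of all genes did. An unadjusted p under 0.05 in edgeR was found for 0 of the 12, against 24.8% of all genes. Only 1 of 12 was negative without libraries 2 and 3 labelled deficient (median 0.14). All 6 tested lymphatic endothelial markers had a negative difference (median -0.48), opposite in sign to Ramp2 (0.38). All 6 stayed negative without libraries 2 and 3 labelled deficient (median -0.31). Their sums were 150.0 to 206 CPM in the libraries labelled deficient. Control library 1 stood apart at 335 CPM, and controls 2 to 4 were at 195, 197 and 218 CPM, so the groups overlapped. Pdpn, at -0.37 ± 0.07 (edgeR adjusted p = 0.0906), was the lymphatic marker whose groups did not overlap. That is 1 of 6, near the share of all genes (16.3%), and no result about lymphatic markers.

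Smooth muscle markers shared the sign of Ramp1. All 9 had a negative difference (median -0.24), 0 were separated between groups, and 3 (Smtn, Lmod1 and Myocd) had an unadjusted p under 0.05 in edgeR, against 24.8% of all genes. Their sums ran from 4196 to 4898 CPM in the libraries labelled deficient and from 4245 to 6352 CPM in controls. In controls 1 to 4 the sums were 4245, 6003, 5091 and 6352 CPM, beside Ramp1 levels of 106, 88.4, 96.9 and 103 CPM. In deficient-labelled libraries 1 to 4 they were 4196, 4682, 4898 and 4471 CPM, beside Ramp1 levels of 73.3, 62.4, 74.3 and 80.6 CPM. Epithelial marker sums were 3046 and 2233 CPM in libraries 2 and 3 labelled deficient, against 1380.2 and 1438 CPM in libraries 1 and 4 and 1321 to 1533 CPM in controls. Of the 10 epithelial markers 7 had a positive difference (median 0.43) and 2 an unadjusted p under 0.05. With libraries 2 and 3 labelled deficient left out, 5 of 10 were positive (median -0.04). Those libraries had been singled out by these sums, so this drop is no further result.

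Macrophage markers shared the sign of both Ramp2 and Ramp3. All 8 had a positive difference (median 0.53), 7 had an unadjusted p under 0.05 in edgeR (24.8% of all genes), 6 were separated between groups (16.3%) and DESeq2 called 6 (14.2%), while edgeR called 0. Leaving out libraries 2 and 3 labelled deficient, 7 of 8 were positive (median 0.32). Their sums did not overlap, at 781, 1085, 1090.5 and 824 CPM in deficient-labelled libraries 1 to 4 and 562 to 754 CPM in controls. Libraries 2 and 3 labelled deficient were thus the highest, as for Ramp3 and the epithelial sums. Ramp2 levels in deficient-labelled libraries 1 to 4 were 64.0, 82.0, 66.5 and 68.0 CPM, so for Ramp2 library 3 lay below library 4. Sums of 8 stromal markers ran from 7477 to 8812 CPM in the libraries labelled deficient and from 6029 to 7521 CPM in controls. Of these markers 3 of 8 were positive and 5 negative (median -0.07), and 3 had an unadjusted p under 0.05. The sums rest largely on the collagen genes Col1a1 (means of 1483 CPM in controls and 2363 CPM where labelled deficient) and Col3a1 (2242 and 2825 CPM). None of the markers of these 6 lists found in the table was at 0 counts in all libraries. The part of any of these cell types in the differences of the members was not tested.

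**Figure D4:**
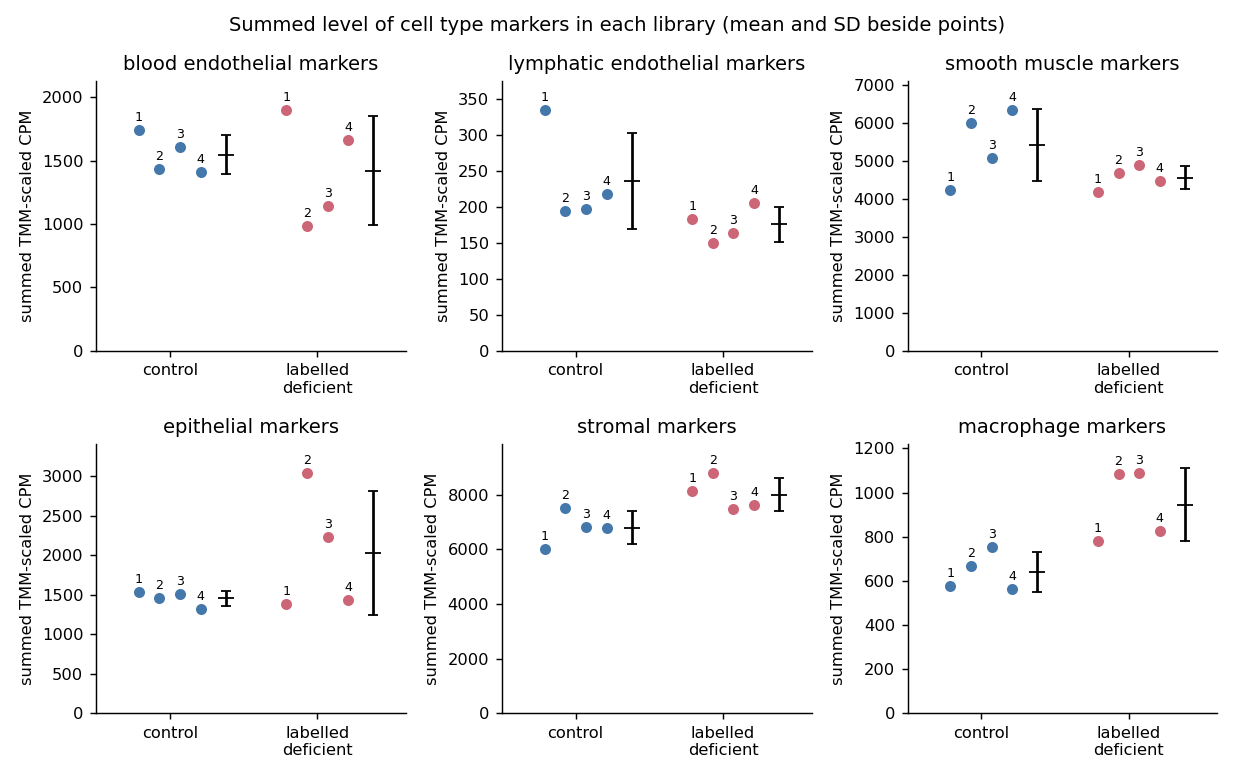
Summed TMM-scaled CPM of the markers of 6 cell types in each library, with library numbers over the points and the mean and SD beside each group. Libraries 2 and 3 labelled deficient have the lowest blood endothelial and the highest epithelial sums, and macrophage sums are the ones that do not overlap.

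Among the peptide genes, Adm was the one with the most counts, 1781 to 3586 per library. Adm (chromosome 7, 110627657 to 110629820) encodes adrenomedullin and is a known target of the hypoxia-inducible factors. It measured 30.9, 31.3, 24.4 and 50.6 CPM in controls 1 to 4, and 24.8, 34.2, 30.7 and 28.6 CPM in deficient-labelled libraries 1 to 4. Control library 4 stood above all others, and the remaining libraries of both groups covered the same range. The log2 difference was -0.21 ± 0.22 (SE; edgeR adjusted p = 0.555), and without control library 4 it was 0.026 ± 0.14 (edgeR adjusted p = 0.934). Gm28863 overlaps Adm in the annotation, and its reads were not analysed here.

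Calca (chromosome 7, 114625981 to 114636910) encodes both calcitonin and alpha-CGRP by alternative splicing, which a count per gene cannot separate. Calcitonin is known as a progesterone-induced product of the glandular epithelium of the rodent uterus around implantation. Calca had 88, 62, 64 and 43 counts in controls 1 to 4 and 83, 103, 35 and 55 counts in deficient-labelled libraries 1 to 4. Libraries labelled deficient gave both the highest and the lowest count. Group means were 0.892 ± 0.248 CPM and 0.981 ± 0.452 CPM (SD, n = 4 each). The log2 difference was 0.14 ± 0.37 (SE; edgeR adjusted p = 0.842), with a 95% interval of the ratio from 0.606 to 1.99. It changed sign without control library 4 (-0.019) or without library 2 labelled deficient (-0.15).

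Calcb and Adm2 were close to the limit of detection. Calcb (chromosome 7, 114716555 to 114723368), on the same chromosome as Calca, encodes beta-CGRP. It had 2, 2, 5 and 3 counts in controls 1 to 4 and 3, 15, 2 and 2 counts in deficient-labelled libraries 1 to 4. Library 2 labelled deficient stood apart, and the other libraries of both groups covered the same range. Adm2 (chromosome 15, 89322720 to 89324731), the gene for intermedin, had 1, 5, 0 and 6 counts in controls 1 to 4 and 4, 1, 0 and 3 counts in deficient-labelled libraries 1 to 4. A count of 0 allows up to 3 counts, or 0.0411 CPM in control library 3 and 0.0426 CPM in library 3 labelled deficient, for counting error only. With no filter on low counts the log2 difference was 0.89 ± 0.78 (SE) for Calcb and -0.56 ± 1.03 for Adm2, with edgeR adjusted p of 0.514 and 0.776. No difference was detected in either at this depth.

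CGRP in the uterus is known mainly from sensory nerve fibres, whose cell bodies lie outside the organ. Of 8 sensory neuron markers 4 passed the filter, and 0 of them had an unadjusted p under 0.05 in edgeR, against 24.8% of all genes. Over all 8 libraries together Scn10a had 4 counts, Scn9a 4, Tac1 19 and Trpv1 37. The summed level of the 8 was 12.2 to 14.5 CPM in controls and 12.9 to 17.7 CPM in the libraries labelled deficient, with overlap.

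The other genes of the pathway were read in 6 lists, in which edgeR and limma-voom called 0 members. DESeq2 called 1 gene each of peptide processing (Scg5), clearance and binding (Ece2) and cyclic AMP signalling (Pde4d), 4 of the 13 of hypoxia response and 0 of the other 2 lists, beside 14.2% of all genes. The counts at an unadjusted p under 0.05 given below stand beside 24.8% of all genes. Genes named below as without overlap between groups stand beside 16.3% of all genes. Over all tested genes the median log2 difference was 0.01 and 48% were negative. Peptide processing genes had 4 of 7 tested members positive (median 0.05). Scg5, the chaperone of prohormone convertase 2, was the member with an unadjusted p under 0.05, at -1.34 ± 0.33 (edgeR adjusted p = 0.0968). It measured 1.90, 1.26, 1.01 and 2.78 CPM in controls 1 to 4 and 0.622, 0.682, 0.624 and 0.807 CPM in deficient-labelled libraries 1 to 4, without overlap. Furin (0.18 ± 0.09), Cpe (-0.28 ± 0.17) and Pcsk6 (-0.48 ± 0.39), enzymes that cut or trim peptide precursors, overlapped between groups. Pam, which adds the C-terminal amide that CGRP and adrenomedullin need, was at 0.05 ± 0.13.

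Among 7 genes of peptide clearance and binding, 5 were positive (median 0.05) and 2 had an unadjusted p under 0.05. Ackr3, an atypical chemokine receptor that also binds adrenomedullin, was at 0.57 ± 0.24 (edgeR adjusted p = 0.191). It measured 55.7, 41.9, 46.3 and 42.3 CPM in controls 1 to 4 and 39.5, 91.5, 81.4 and 63.3 CPM in deficient-labelled libraries 1 to 4. Library 1 labelled deficient was the lowest of all and libraries 2 and 3 the highest, as for Ramp3 among the libraries labelled deficient. Ackr3 was at 0.15 ± 0.20 without libraries 2 and 3 labelled deficient (edgeR adjusted p = 0.732). Ece2, an endothelin-converting enzyme, was at 0.32 ± 0.10 (edgeR adjusted p = 0.114), with all 4 libraries labelled deficient above the controls. Gpr182, an atypical chemokine receptor once proposed as an adrenomedullin receptor, was at -0.31 ± 0.22, and Mme, the peptidase neprilysin, at 0.28 ± 0.35.

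Among the related receptor, ligand and coupling genes, Calcr, the calcitonin receptor, and Iapp, the peptide amylin, had 1 count each over all libraries. Of the 6 tested members 4 were positive (median 0.04) and 0 had an unadjusted p under 0.05. Crcp, the CGRP receptor component protein, was at 0.22 ± 0.11 (edgeR adjusted p = 0.251), with the libraries labelled deficient at 26.6 to 34.4 CPM and the controls at 21.7 to 26.5 CPM, a gap smaller than the spread within either group. Grk2 (0.08 ± 0.07), Arrb2 (-0.05 ± 0.07) and Arrb1 (-0.08 ± 0.18), which switch off activated receptors, overlapped between groups. Gnas, the stimulatory G protein of this receptor, was at 0.02 ± 0.06.

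Downstream, genes of cyclic AMP and protein kinase A went both ways, with 8 of 18 positive (median -0.03), or 14 of 18 without libraries 2 and 3 labelled deficient (median 0.07). An unadjusted p under 0.05 was found for 4 of them, 3 lower and 1 higher. Pde4d, a phosphodiesterase that breaks down cyclic AMP, measured 45.6, 48.6, 47.8 and 54.3 CPM in controls 1 to 4 and 28.5, 34.4, 35.9 and 39.7 CPM in deficient-labelled libraries 1 to 4. It was lower in each of the latter than in any control, at -0.50 ± 0.11 (edgeR adjusted p = 0.0906, DESeq2 adjusted p = 0.00168). Pde3a, another phosphodiesterase, was at -0.35 ± 0.14. Of the adenylyl cyclases, which make cyclic AMP, Adcy6 was at -0.24 ± 0.09 and Adcy7 at 0.25 ± 0.09, each without overlap between groups. In the whole list of 18 the groups did not overlap for 2 lower genes and 1 higher gene, near the share of all genes (16.3%).

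Genes of nitric oxide and potassium channel relaxation had 6 of 7 members below 0 and a median of -0.29, and 0 had an unadjusted p under 0.05. Their summed level was 242 and 316 CPM in libraries 2 and 3 labelled deficient, where blood endothelial marker sums were also low. In libraries 1 and 4 it was 418 and 393 CPM, within the controls (384 to 432 CPM). When libraries 2 and 3 labelled deficient were left out, 4 of 7 members were negative (median -0.02). The part of endothelial cells in this was not tested. Kcnj8 (-0.39 ± 0.19) and Abcc9 (-0.34 ± 0.17), the subunits of the vascular ATP-sensitive potassium channel, and Gucy1b1 (-0.29 ± 0.19), of soluble guanylate cyclase, overlapped between groups. Kcnj8 measured 36.8 and 47.6 CPM in libraries 2 and 3 labelled deficient, against 67.8 to 75.4 CPM in the other 6 libraries, and its difference without both was -0.07 ± 0.06 (edgeR adjusted p = 0.579). Kcnma1, a calcium-activated potassium channel, was at 0.32 ± 0.23.

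The hypoxia response genes, read beside Adm, did not share a direction. Of 13 members 8 were positive (median 0.09), and 5 had an unadjusted p under 0.05, 3 higher and 2 lower. Bnip3, a mitophagy receptor, was at -0.62 ± 0.12 and Slc2a1, the glucose transporter GLUT1, at -0.76 ± 0.18. Egln1, an oxygen-sensing hydroxylase, was at 0.57 ± 0.12 and Ldha, lactate dehydrogenase A, at 0.75 ± 0.21. The groups did not overlap for any of these 4, whose edgeR adjusted p ran from 0.0906 to 0.104. They were named for the smallest p of the 13, which favours separated genes. They were the only separated genes of the list (2 higher and 2 lower), where 16.3% of all genes were separated.

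**Figure D5:**
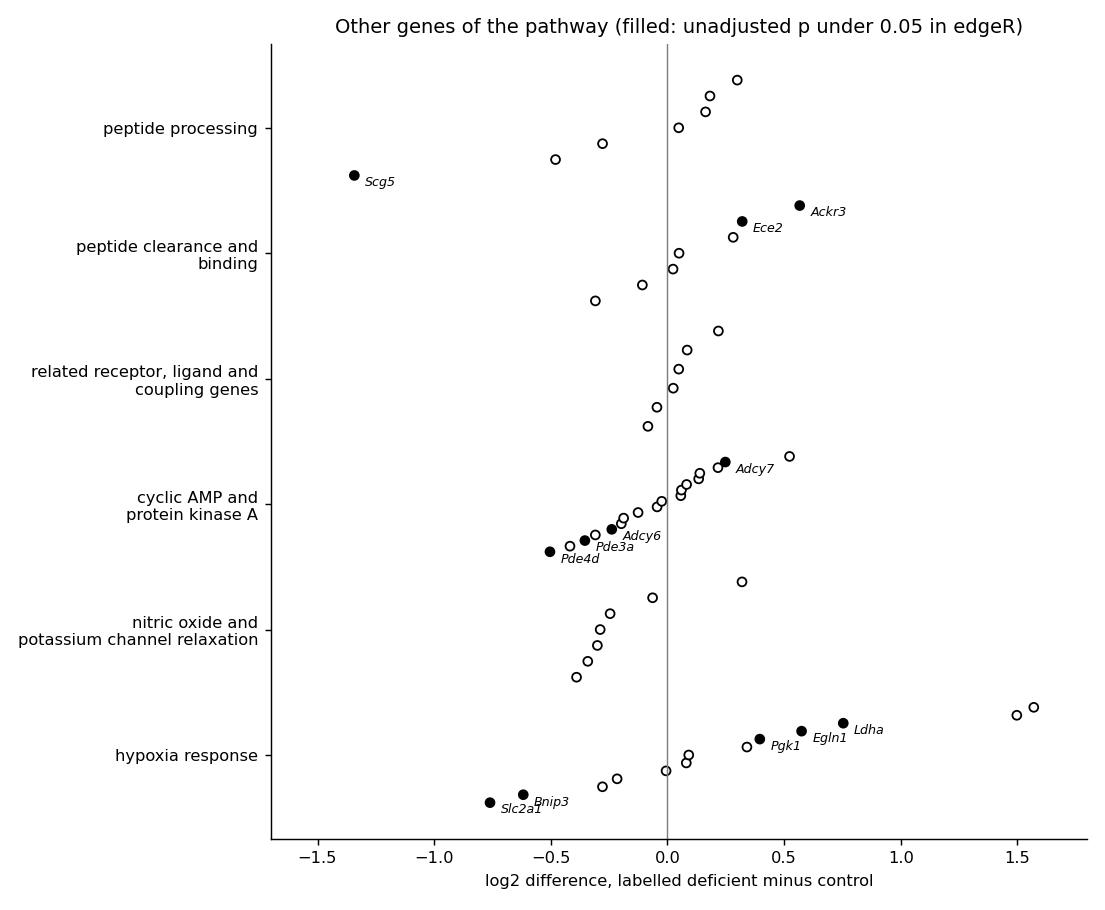
Log2 difference (labelled deficient minus control) of each tested gene of 6 pathway lists, 1 point per gene, filled and named where the unadjusted p in edgeR was under 0.05. Members of each list lie on both sides of 0, and 6 of the 7 nitric oxide and potassium channel genes lie below 0.

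The genes whose levels over the 8 libraries were most like those of each member were found by the root mean square difference of log2 CPM centred on each gene's mean, among 15239 genes with a mean of at least 1 CPM. For Ramp1, which had an SD of 0.27 in log2 CPM over the libraries, they were Fam193b, Tmem65 and Tbc1d17, at 0.04, 0.04 and 0.05. For Ramp2 (SD 0.25) they were Atp9a, Tmem9b and Lrrc42, at 0.06 to 0.07. Like these members, all 6 genes were separated between groups, against 16.3% of all genes. They were picked for their likeness to separated members, so this is no further result. For Ramp3 (SD 0.79) they were Col6a4, P2ry14 and Negr1, at 0.22 to 0.23. Col6a4 and P2ry14 were separated between groups, while Negr1 overlapped, as Ramp3 did. Calcrl (SD 0.19) was closest to Cacng7, Ggn and Dnajb2, at 0.05 to 0.06. Adm (SD 0.33) was closest to Rnmt, Nup210 and Ptpn3, at 0.12 to 0.14, and Calca (SD 0.52) to Mfap4, Tmem121 and AK054042, at 0.23 to 0.25. How close the nearest genes of other patterns lie was not measured.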

How the data were processed

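The authors deposited whole-number counts per gene symbol, with no normalization, for 8 libraries. HISAT2 2.2.1, HTSeq 0.10.0 and the build mm10 are named in the submitters' processing notes. Strand and other settings were not stated there, so reads of overlapping genes cannot be told apart. Columns were matched to samples by the library name in each title. Genes were filtered with filterByExpr, scaled with TMM and tested with edgeR 4.0.16 (R 4.3.3, two-sided, group as the only term), with DESeq2 1.42.0 and limma-voom (limma 3.58.1) as alternatives. SEs come from the log2 difference and its F value. Any 2 libraries of a group differed by more than counting noise (chi-square per degree of freedom at least 46.5). The fits were also run on simulated counts, and no result here rests on the outcome. Positions are from RefSeq (GRCm38.p6, the assembly of mm10), which also gave older symbols for 4 of 123 list genes. Ccl21a was not analysed here.

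The members and lists were chosen with earlier results of these data known. Named genes were the members, Pgr, up to 4 genes per list with the smallest p, and the 3 genes most like each member. Some named genes fall outside this rule and were chosen after their values were seen: Pam, Gnas, Calcr, Iapp, the tissue and sensory neuron markers and the overlapping genes.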

Additional observations from a re-analysis of the deposited data

Results flagged for a closer look

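In groups of 4 libraries, a library was singled out when its gap to the nearest other, relative to the group's range, exceeded Dixon's 95% critical value. This was tried in 26 groups, where chance singles out about 5% of them, and 2 were found. Both were library 2 labelled deficient. Calcb measured 0.222 CPM there (15 counts), against 2 to 3 counts in the other 3 libraries of its group. The log2 ratio of Ramp1 over Ramp2 was -0.39 there, against 0.16 to 0.25 in the other 3.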

How the results depend on the processing

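Over all genes edgeR called 0. DESeq2 called 2488 and 3 of the members, limma-voom called 2, the legacy=FALSE fit called 3 and the replicate block called 23, with 0 members in the last 3. On leaving out 1 library the calls ran from 0 to 2 (2 without control library 2) and the genes at an unadjusted p under 0.05 from 2896, when control library 4 was dropped, to 5471, when deficient-labelled library 4 was, against 4372 with all. No member was called in these fits (0 of 6). Ramp1 was negative and Ramp2 and Ramp3 positive in all 19 alternatives run on them. Ramp3 ranged from 0.40 without libraries 2 and 3 labelled deficient to 1.33 without control library 2. DESeq2 gave -0.44, 0.38 and 1.06 for Ramp1, Ramp2 and Ramp3. Signs changed for Calca (-0.019 without control library 4, -0.15 without library 2 labelled deficient, in a range up to 0.35), Adm (0.026 without control library 4, against -0.35 without control library 3 and -0.36 without libraries 2 and 3 labelled deficient) and Calcrl (0.060 without libraries 2 and 3 labelled deficient). The cause was not tested. Leaving out libraries was added for the ratios and, with libraries 2 and 3 labelled deficient, for the lists after seeing the data. The choice of these libraries rests on values of these data, for the members and the epithelial markers too. No ratio changed sign, and the list medians that did were those of peptide processing (0.05 to -0.02), cyclic AMP (-0.03 to 0.07), blood endothelial (-0.15 to 0.14), epithelial (0.43 to -0.04) and stromal genes (-0.07 to 0.02).

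Replicate numbers are shared between the groups, but same-numbered libraries deviated together in only some pairs (correlations of 0.20, 0.24, -0.01 and -0.08), and 3 of 8 libraries correlated best with their own number. The numbers were therefore not taken to pair the samples. With the replicate block edgeR called 23 genes and the adjusted p was 0.0613 for Ramp1, 0.0890 for Ramp2 and 0.0526 for Ramp3. Depth limits Calcb and Adm2, with 34 and 20 counts over all libraries.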
